A study of Mus musculus with 6 samples.

Results

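Metalloprotease genes and the genes of their TIMP inhibitors were examined in sorted tumor cells of mice under antiangiogenic treatment. The 10 genes were taken from a list by symbol, out of 47643 genes counted: the membrane-type proteases Mmp14 and Mmp15, the secreted protease Mmp11, the inhibitors Timp1, Timp2 and Timp3, and the proteases Adam9, Adam10, Adam15 and Adam17. All 6 samples were CD45-EPCAM+ cells sorted from breast tumors of FVB/N mice carrying the MMTV-PyMT transgene, in which the mouse mammary tumor virus promoter drives the polyoma middle T antigen mainly in mammary epithelium. The treatment was the same in all mice: B20-4.1.1, which binds and blocks murine VEGF-A, was injected 2 times a week at a dose of 5 mg/kg for 6 weeks, starting at 7 weeks of age. The methods of the study add that the sorted cells were also negative for CD31 and PDGFRα. The study divides treated tumors into low (LH) and high (HH) hypoxia, but which class a given sample came from is not stated in the sources used here. Values are therefore given tumor by tumor, no groups were compared, and untreated tumors were not analysed here.

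Matrix metalloproteases (MMPs) and ADAM proteases are zinc enzymes. MMP14 sits in the cell membrane, cleaves collagen and other matrix proteins, and activates pro-MMP2 in a complex in which TIMP2 is the bridge. ADAM10 and ADAM17 release the outer parts of membrane proteins, among them Notch receptors, TNF and ligands of the EGF receptor. The TIMPs are small secreted proteins that block the zinc site, and TIMP3 differs from the others in that it binds to the matrix and inhibits ADAM17. In mammary tumors these enzymes and inhibitors are made by tumor cells and by stromal cells.

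The 7 proteases share the sequence motif of the zinc site, which is where a TIMP blocks an enzyme that it inhibits. The motif does not show which of the 7 a TIMP inhibits. Its 11 codons (33 bases, coding strand, 5′ to 3′) are shown because the inhibitors act there. The stretch was chosen by this motif, which fixes some of its residues. Identity within it therefore does not measure how far apart the genes are. Capitals mark the codons of the 3 zinc-binding histidines and of the catalytic glutamate. They were read from GENCODE M21 transcripts on GRCm38.
Mmp14: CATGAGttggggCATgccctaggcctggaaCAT
Mmp15: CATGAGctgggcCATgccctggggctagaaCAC
Mmp11: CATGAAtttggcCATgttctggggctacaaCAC
Adam9: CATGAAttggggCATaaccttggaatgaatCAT
Adam10: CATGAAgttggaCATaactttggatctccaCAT
Adam15: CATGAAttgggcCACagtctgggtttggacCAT
Adam17: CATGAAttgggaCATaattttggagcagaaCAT
The Mmp14, Mmp15 and Mmp11 codons lie in exon 5 of the transcripts used, at chr14:54437627-54437659 on the plus strand, chr8:95368585-95368617 on the plus strand and chr10:75926931-75926963 on the minus strand. Those of Adam9 (chr8:24990326-24990358), Adam15 (chr3:89344780-89344812) and Adam17 (chr12:21336732-21336764) are on the minus strand in exons 11, 11 and 12. The Adam10 site is divided between exons 9 and 10 on the plus strand of chromosome 9. Of the 33 bases, 27 were identical between Mmp14 and Mmp15, 27 between Mmp15 and Mmp11 and 26 between Adam10 and Adam17. Over the 12 pairs of an MMP with an ADAM gene, 18 to 25 bases were identical, against 19 to 27 over the 9 pairs within a family.

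Promoter windows of the RefSeq table (GRCm38.p6, 250 bases before to 50 after the start site) were found for 9 of the 10 genes, with no entry used for Adam9. Those of Timp3 (chr10:86300162-86300461, plus strand) and Mmp14 (chr14:54431348-54431647, plus strand) are shown, since these were the genes whose levels varied most among the tumors at their abundance. Capitals mark the core of the hypoxia response element, ACGTG or GCGTG on either strand.
Timp3: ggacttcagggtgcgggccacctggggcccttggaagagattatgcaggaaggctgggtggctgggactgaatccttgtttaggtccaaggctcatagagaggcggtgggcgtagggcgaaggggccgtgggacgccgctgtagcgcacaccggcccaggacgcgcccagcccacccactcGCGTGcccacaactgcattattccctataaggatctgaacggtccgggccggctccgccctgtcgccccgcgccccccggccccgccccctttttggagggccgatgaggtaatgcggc
Mmp14: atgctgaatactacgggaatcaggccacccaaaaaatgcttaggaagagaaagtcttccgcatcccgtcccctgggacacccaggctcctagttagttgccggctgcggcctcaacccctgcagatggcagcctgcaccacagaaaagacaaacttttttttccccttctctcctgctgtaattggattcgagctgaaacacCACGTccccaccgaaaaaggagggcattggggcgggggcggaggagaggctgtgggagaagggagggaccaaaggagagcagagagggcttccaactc
The first base of the match lay 69 bases before the start site in Timp3 and 48 bases before it in Mmp14, where it is on the opposite strand. At least 1 such core was present in 7 of the 9 windows and in 43.8% of all 32851 promoter windows, with none in the windows of Mmp15 and Mmp11. A GC box, GGGCGG on either strand, was present in 9 of 9 windows and in 35.7% of all windows, and the median GC content was 67.0% against 52.7%. A match is a description of the sequence and shows no binding.

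The QuantSeq libraries read each transcript near its 3′ end, and the files hold unnormalized counts for each gene. Between 2509482 and 5893246 counts fell on genes per tumor, so that 3 counts correspond to 0.509 to 1.20 CPM, the unit used below, in which counts are scaled by the total on genes. Tumor 1 stood apart from the others. Its median correlation with the other libraries across 8873 genes was 0.788, against 0.905 to 0.939 for the other 5, and it was the highest tumor for 32.4% of the 12563 genes that passed the filter on low counts. Luminal markers were abundant in every tumor (summed level of 7 genes 3957 to 4874 CPM, Epcam 611 to 972 CPM), while the 5 endothelial markers summed to at most 4.12 CPM and the 5 pericyte markers to at most 9.33 CPM. The 13 immune markers summed to 104 to 310 CPM, with S100a8, a neutrophil gene, at 73.8 to 230.4 CPM and Lyz2 at 148 CPM in tumor 3. S100a8 did not follow Lyz2: in tumor 4 it gave 230.4 of the summed 247 CPM, with Lyz2 at 3.19 CPM. In these bulk samples, fewer cells of a type and less RNA per cell cannot be told apart. Each tumor is a separate sample by its label, and p-values measure the spread among these 6.

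Every one of the 10 genes had more than 3 counts in every tumor, and all 10 passed the filter. Gene positions are those of GENCODE M21 on GRCm38. Values are CPM in the order of tumors 1 to 6, and intervals are Wilson 95% intervals, which cover counting error only.

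Mmp14 (ENSMUSG00000000957, chr14:54431612-54445364) was present at 17.3, 64.2, 88.5, 47.2, 187 and 128 CPM. Its level in tumor 5 was 10.8 times that in tumor 1, where 102 counts gave an interval of 14.3 to 21.0 CPM, and without tumor 1 its lowest level was 47.2 CPM. The coefficient of variation (CV) over the tumors was 68.9%, of which counting alone would give 5.16%. The dispersion of Mmp14 relative to the trend over abundance was at percentile 97.9 of all tested genes.

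Mmp15 (ENSMUSG00000031790, chr8:95352268-95375080), the other membrane-type member, was present at 83.5, 44.6, 63.3, 44.9, 44.5 and 55.6 CPM. It was highest in tumor 1, where Mmp14 was lowest, and lowest in tumor 5, where Mmp14 was highest. Per length, Mmp15 exceeded Mmp14 in tumors 1 and 4, at 39.6 against 7.44 TPM and at 21.9 against 20.9 TPM, the latter within counting error. Mmp11 (ENSMUSG00000000901, chr10:75923222-75936496), known as stromelysin-3 and usually made by stromal fibroblasts, was rare, at 2.88, 3.19, 4.36, 3.40, 6.99 and 3.90 CPM. It rested on 8 to 35 counts, and counting alone would give a CV of 23.9% of the 36.4% observed. Its exons overlap those of Chchd10 on the opposite strand, which reached 1358 counts.

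**Figure D1:**
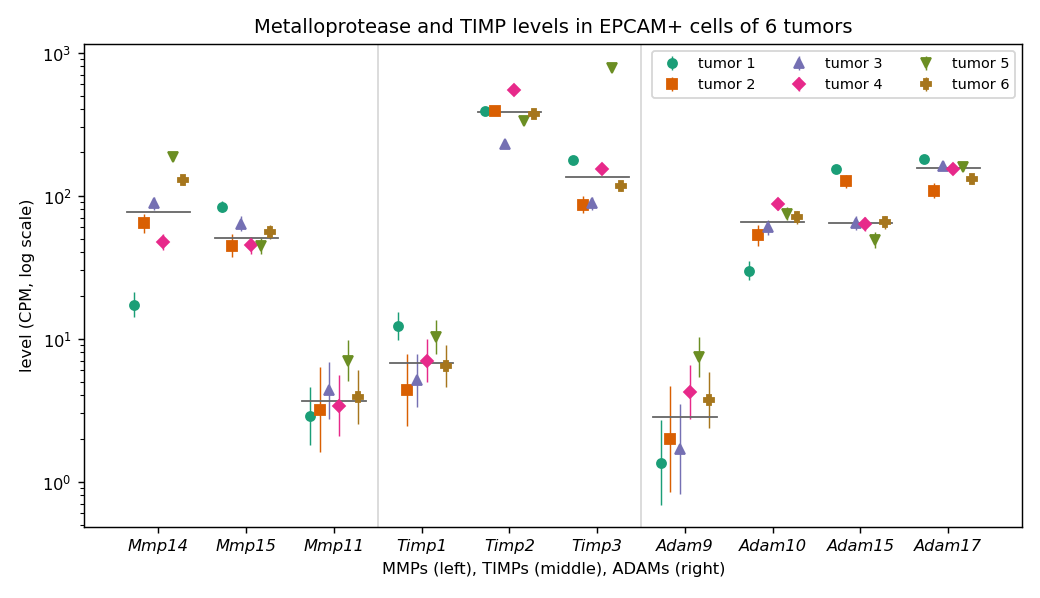
Level of each of the 10 genes (CPM, log axis) in the EPCAM+ cells of 6 tumors, with 1 symbol per tumor, Wilson 95% intervals as vertical lines and the median of the 6 as a horizontal line. Timp3 lay at 781 CPM in tumor 5 and at 86.5 to 177 CPM elsewhere, and Mmp14 ranged from 17.3 to 187 CPM.

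Timp2 (ENSMUSG00000017466, chr11:118301069-118355740), the inhibitor that also takes part in pro-MMP2 activation, was the most abundant in 5 of 6 tumors, at 392, 392, 228, 547, 334 and 374 CPM. Its CV was 27.4%. The lowest value was that of tumor 3 and the highest that of tumor 4.

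Timp3 (ENSMUSG00000020044, chr10:86300372-86349506) was present at 177, 86.5, 88.5, 153, 781 and 117 CPM. Tumor 5 lay far above the other 5, at 6.69 times their median, with 3912 counts. Timp3 had the largest CV of the 10 genes, 116%, and its dispersion relative to the trend was at percentile 99.1. In tumor 5 it was the most abundant of the 10 genes and exceeded Timp2 per length as well, at 240.2 against 214.8 TPM. The gene lies within Syn3 on the opposite strand, and all 251 windows of 50 bases in the last 300 bases of its longest coding transcript are also found, reversed, in transcripts of Syn3. Syn3 itself was given at most 14 counts. The kit marks strand, but whether the counting used it is not stated in the sources used here.

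Timp1 (ENSMUSG00000001131, chrX:20870166-20874735), an inhibitor of secreted MMPs and of ADAM10, was present at only 12.2, 4.38, 5.09, 7.02, 10.2 and 6.44 CPM. It was highest in tumors 1 and 5. It lies within an intron of Syn1 on the opposite strand, which had at most 2 counts.

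Among the ADAM genes, Adam17 (ENSMUSG00000052593, chr12:21323509-21373632) was the steadiest of all 10, at 180, 108, 162, 153, 158 and 131 CPM. Its CV was 17.0% and its dispersion relative to the trend was at percentile 12.9. The last 300 bases of its longest coding transcript lie wholly within transcripts of Iah1 on the opposite strand, which had at most 91 counts. Adam10 (ENSMUSG00000054693, chr9:70678997-70780229) was present at 29.9, 52.6, 59.9, 87.2, 74.7 and 70.5 CPM, lowest in tumor 1.

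Adam15 (ENSMUSG00000028041, chr3:89338542-89349996), a disintegrin protease that binds integrins, was present at 154, 126, 64.3, 63.6, 48.7 and 64.8 CPM. Tumors 1 and 2 were the high samples, and their intervals did not overlap those of the other 4. Adam9 (ENSMUSG00000031555, chr8:24949611-25016927), a shedding protease of the same family, was the rarest of the 10, at 1.36, 1.99, 1.70, 4.25, 7.39 and 3.71 CPM on 5 to 37 counts. Counting alone would give a CV of 26.4% of its 66.8%.

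Levels of different genes were compared per length, as TPM, in which counts are divided by union exon length and scaled to the same total in each tumor. Timp2 had a median of 247 TPM, followed by Adam17 with 55.8, Timp3 with 42.4, Adam10 with 33.1, Mmp14 with 32.9, Adam15 with 26.8, Mmp15 with 23.6, Timp1 with 19.3, Mmp11 with 3.34 and Adam9 with 1.75 TPM. Only 2 pairs of neighbours in this order had ranges that did not overlap over the 6 tumors. Timp2 exceeded Adam17 in all 6, and Timp1 exceeded Mmp11 in all 6. Since 3′ counts depend little on length, the order by CPM is also given: it differed in that Mmp14 stood above Adam10. By CPM the ranges of Timp1 and Mmp11 overlapped, and the pairs without overlap were Timp2 with Adam17 and Mmp15 with Timp1.

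Inhibitor transcripts made up most of the counts on the 10 genes in 5 of 6 tumors. The share of the 3 TIMP genes was 55.3, 54.6, 42.0, 63.7, 68.1 and 52.1% in tumors 1 to 6, with a Wilson 95% interval of 67.1 to 69.1% in tumor 5 and 40.3 to 43.7% in tumor 3. Per kilobase the median share was 63.8% against 55.0% by counts. The 3 MMP genes held 8.60 to 20.4% and the 4 ADAM genes 17.5 to 37.6% of the counts. Which inhibitor led differed in tumor 5, where Timp3 held 47.3% and Timp2 20.2%, while in the other 5 Timp3 held 9.79 to 16.9% and Timp2 29.8 to 49.3%.

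**Figure D2:**
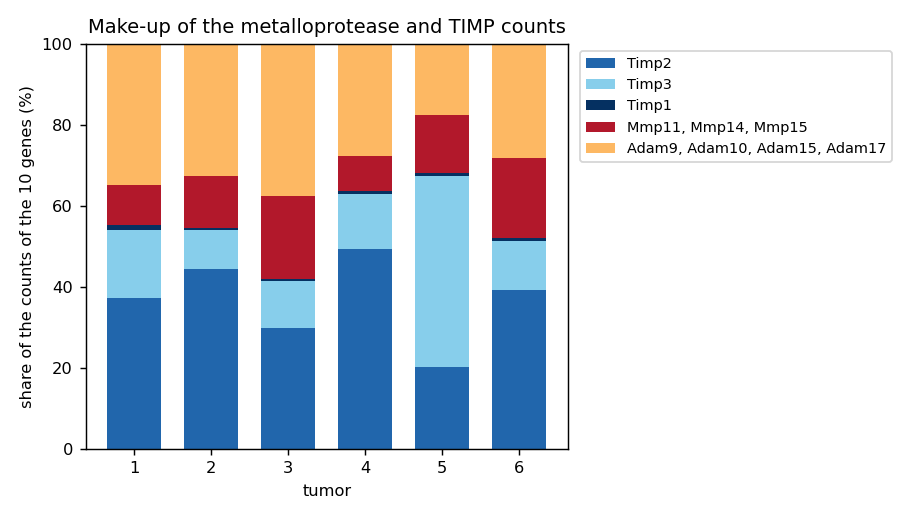
Share of the counts of the 10 genes (%, vertical axis from 0) held by Timp2, Timp3, Timp1, the 3 MMP genes and the 4 ADAM genes in each of 6 tumors. The share of Timp3 was 47.3% in tumor 5 and at most 16.9% in the others.

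A tumor was said to stand apart for a gene where the distance between it and its closest neighbour, as a fraction of the whole range, was above Dixon's 95% critical value for 6 values. On TMM-scaled CPM this held for 2 of the 10 genes, Timp3 with 0.868 and Mmp11 with 0.632, both through a high value in tumor 5. Among all 12563 tested genes a tumor stood apart for 15.1%, so the count of 2 is near the background. Tumor 1 was the tumor in 1319 of these 1891 genes, and tumor 5 as the highest in 182. On log2(TMM-scaled CPM + 1) the gap of Timp3 was 0.67 and that of Mmp11 0.54, below the critical value.

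Tumor 5 was the highest for 4 of the 10 genes, Mmp14, Mmp11, Timp3 and Adam9, against 17.0% of all tested genes. Tumor 1 was the highest for another 4, Mmp15, Timp1, Adam15 and Adam17, against 32.4%. The log2 ratio of tumor 5 to the median of the other 5 was 2.56 for Timp3, 1.45 for Mmp14, 1.43 for Adam9 and 0.85 for Mmp11. These 4 ratios lay at percentiles 99.7, 98.0, 97.9 and 93.0 of all tested genes. More than 2-fold higher levels in tumor 5 (a log2 ratio over 1) were found for 3 of the 10 genes and for 5.08% of all tested genes. In tumor 1 the corresponding ratios were −2.24 for Mmp14, −1.29 for Adam10, −1.13 for Adam9 and 1.26 for Adam15. Ratios under −1 in tumor 1 were found for 3 of the 10 genes and for 17.9% of all tested genes. These contrasts of 1 tumor with the rest have no replicate and were not tested.

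The study asked how tumors that become hypoxic under antiangiogenic treatment resist it, and its 3-gene hypoxia score offers a measure for each sample. The score is the mean TPM of Vegfa, the hypoxia-induced growth factor that the antibody binds, Slc2a1, a glucose transporter, and Car9, a carbonic anhydrase. It was 48.5, 37.2, 51.4, 76.6, 94.4 and 47.3 TPM in tumors 1 to 6. None of the 10 genes is part of it. The treated tumors of the study were of both classes, so class and score cannot be told apart here.

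No relation of the 10 genes to the score passed the test. In edgeR's quasi-likelihood fit over 12563 genes, the number with an adjusted p under 0.05 (Benjamini-Hochberg) was 0 of the 10 genes and 0% of all genes, the smallest adjusted p being 0.419. At an unadjusted p under 0.05 there were 2 of the 10 genes and 4.31% of all genes. DESeq2's Wald test gave 19 genes of all tested at an adjusted p under 0.05, none of them among the 10. The slope, in log2 units per doubling of the score, was above 0 for 8 of the 10 genes and for 5880 of all tested genes, with medians of 0.45 and −0.04.

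Timp3 had the steepest slope of the 10, 2.05 (SE 0.47, unadjusted p = 0.00161, adjusted p = 0.669, edgeR). Without tumor 5 its slope was 0.56 (SE 0.63, unadjusted p = 0.397, edgeR). Its adjusted p lay between 0.0671 and 1 over the alternatives tried, and the slope was 1.79 with the prefix of the mouse identifiers as a term. The identifiers have 2 prefixes, with 4 and 2 tumors, too few for a value within each. The Pearson correlation of Timp3 with the log2 score was 0.80 (exact permutation p = 0.0486 over 720 orders, adjusted p = 0.963 over all genes), and Spearman's rho was 0.54 (exact permutation p = 0.297, adjusted p = 0.955). Without tumors 4 and 5, the farthest from the median score, r was 0.29. It was 0.92 without tumor 4 alone and 0.47 without tumor 5 alone, so the relation rests mainly on tumor 5.

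Adam15 had the only negative unadjusted result, with a slope of −1.05 (SE 0.42, unadjusted p = 0.0321, adjusted p = 0.951, edgeR), and r was −0.75 (exact permutation p = 0.0931, adjusted p = 0.963). Spearman's rho was −0.77 (exact permutation p = 0.103, adjusted p = 0.955), and r was −0.52 without tumors 4 and 5. Adam9 had a slope of 1.36 (SE 0.61, unadjusted p = 0.0515, adjusted p = 0.951, edgeR), and its r of 0.76 changed to −0.12 without those tumors. The slope of Mmp14 was 0.74 (SE 0.68), and it was −0.71 (SE 1.16) without tumor 5. The slopes of the other 6 genes lay between −0.39 (Mmp15) and 0.62 (Mmp11), each less than 1.5 times its standard error. Over the 10 genes and all others, 0% had an adjusted exact p under 0.05 for Pearson's r, and the smallest p that 720 orders can give is 0.00139.

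**Figure D3:**
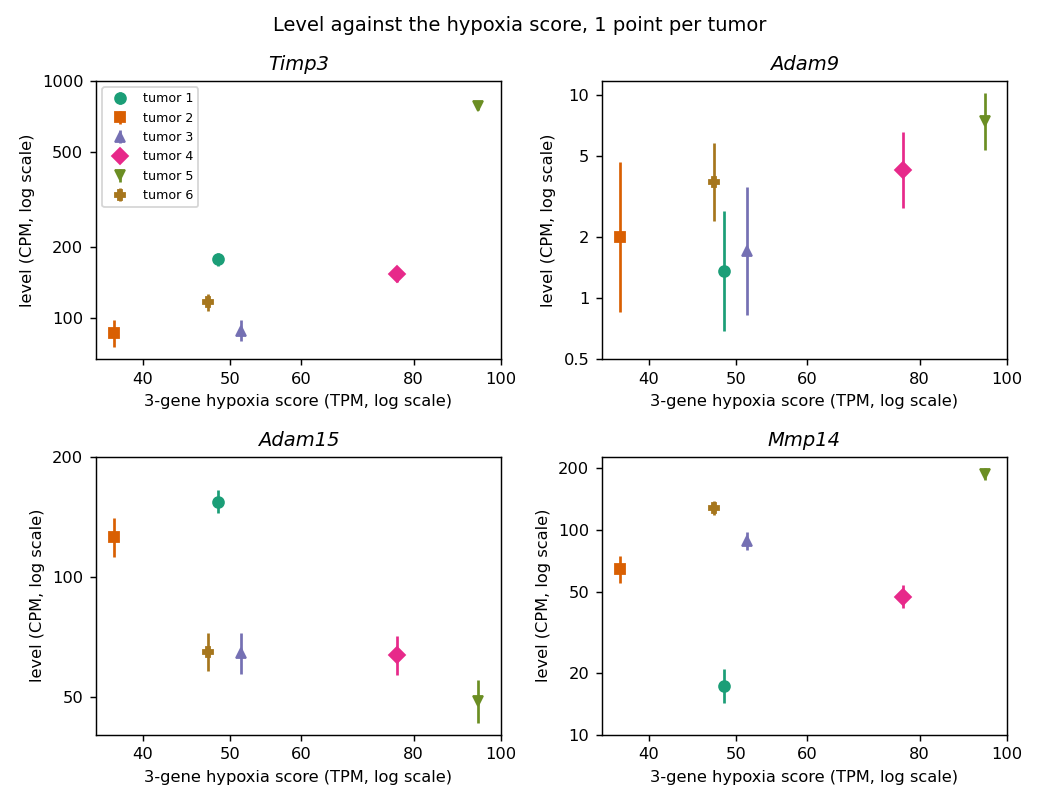
Level (CPM, log axis) of Timp3, Adam9, Adam15 and Mmp14 against the 3-gene hypoxia score (TPM, log axis), with 1 symbol per tumor and Wilson 95% intervals as vertical lines. Tumor 5, at 94.4 TPM, holds the highest Timp3, Adam9 and Mmp14 levels and the lowest Adam15 level, while tumor 4, at 76.6 TPM, has 153 CPM of Timp3 and 47.2 CPM of Mmp14.

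Partners known to act together were compared as 7 pairs over the 6 tumors, and none passed an exact permutation test adjusted over all genes. Mmp14 had r = −0.27 with Timp2 (exact permutation p = 0.600, adjusted p = 0.772), the inhibitor with which it activates pro-MMP2, and 61.0% of all genes had a higher r with Mmp14. It had r = 0.35 with Timp3 and r = −0.56 with Mmp15. Adam17 had r = 0.38 with Timp3, its inhibitor (exact permutation p = 0.353, adjusted p = 0.674), and Adam10 had r = −0.32 with Adam17. Adam10 had r = −0.35 with Timp1 and r = 0.17 with Timp3, the 2 TIMPs that inhibit it. Leaving out the 2 tumors farthest from the median of the first gene changed the sign of r for Mmp14 with Mmp15 (0.89), Mmp14 with Timp3 (−0.14), Adam10 with Timp1 (0.86) and Adam10 with Adam17 (0.54). Spearman's rho lay between −0.43 and 0.60 over the 7 pairs, with exact permutation p-values of 0.242 to 1.

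Few other MMP, TIMP or ADAM genes were abundant in these cells. Of 16 other secreted MMP genes, 6 had no count in any tumor, which allows up to 0.509 to 1.20 CPM per tumor, and none reached a mean of 10 CPM. Their summed level was 2.39 to 10.4 CPM, and the most abundant was Mmp2, the gelatinase that MMP14 activates, at 1.36, 0.398, 2.42, 0.213, 1.60 and 0.976 CPM. Of 4 other membrane-type MMP genes, Mmp16 was the most abundant, at 6.79, 20.3, 15.3, 39.4, 18.8 and 12.5 CPM. Of the other inhibitors, A2m, a broad protease inhibitor, was the most abundant, at 15.8, 7.97, 5.82, 24.0, 26.8 and 7.61 CPM. Timp4 had at most 1 count in a tumor, and Reck, a membrane-anchored MMP inhibitor, was at 1.70 to 3.88 CPM. Of 5 other ADAM protease genes, only Adam8 passed the filter, at 2.15 to 8.24 CPM. Its highest value was in tumor 3, the tumor with the highest Lyz2, a myeloid gene, at 148 CPM against 3.19 to 24.6 CPM in the others. The part of myeloid cells in it was not tested.

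ADAMTS proteases, secreted enzymes that cleave proteoglycans and other matrix proteins and that TIMP3 can inhibit, were highest in the tumor with the most Timp3. The 19 genes of the list together had 316 CPM in tumor 5, against 67.5 to 136 CPM in the other 5. Adamts1 was at 13.1, 17.9, 16.7, 57.9, 201 and 18.2 CPM, while Adamts8 was at 10.9 to 19.1 CPM, Adamts15 at 10.4 to 21.6 CPM and Adamts10 was highest in tumor 1 with 69.7 CPM. Adamts4 and Adamts5, the aggrecanases, named here after their values were seen, were at 18.6 and 21.2 CPM in tumor 5 and at most 3.39 and 3.62 CPM in the others. Of 9 ADAMTS genes tested, 0 passed edgeR's test for a slope on the score, against 0% of all genes. With an unadjusted p under 0.05 and a positive slope there were 3, against 323 of all 12563 tested genes. The median slope of the 9 was 0.39. The slope of Adamts1 was 2.75 (SE 0.45, adjusted p = 0.419, edgeR). Adamts1 passed under 3 of the alternatives, with adjusted p = 0.00346 in DESeq2, 0.0199 in edgeR without the filter and 0.0394 in edgeR with the log2 score, while without tumor 5 its slope was 1.74 (adjusted p = 1, edgeR).

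**Figure D4:**
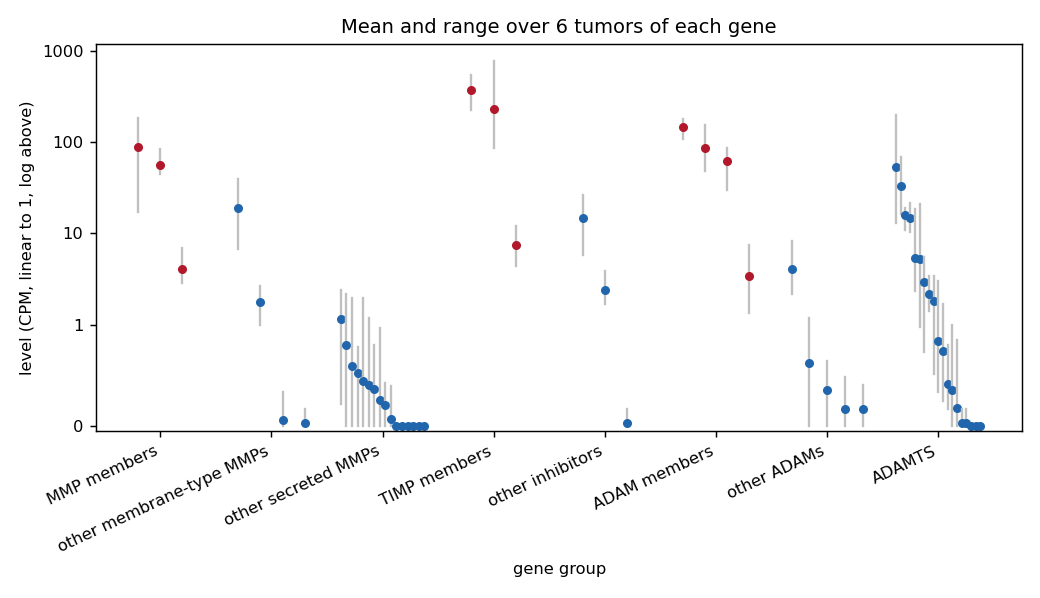
Mean level over 6 tumors (points) and range (vertical lines) of each gene of the MMP, TIMP, ADAM and ADAMTS families and of other inhibitors, in CPM on an axis that is linear up to 1 and logarithmic above. The 10 genes described are red and the others blue. None of the 16 other secreted MMP genes reaches a mean of 10 CPM.

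Genes of proteins that mature, carry or clear these enzymes were measured as well. Furin, the convertase that removes the propeptides of MMP14 and of ADAMs, was at 573 CPM in tumor 1 and at 158 to 277 CPM in the others, with the lowest value in tumor 5. Rhbdf1, which carries ADAM17 through the secretory pathway, was at 86.3 to 251 CPM, and Rhbdf2 was at 37.1 to 52.2 CPM. Tspan14, one of the tetraspanins that bind ADAM10, was at 59.4, 64.2, 262, 183, 202 and 162 CPM. As with Adam10, its lowest values were in tumors 1 and 2, as were those of Tspan5, at 23.9 and 17.1 CPM. The tetraspanin genes Tspan17 and Tspan33 were instead highest in tumor 1, at 54.8 and 62.3 CPM, while Tspan33 was lowest in tumor 2, at 14.7 CPM. Bsg, an inducer of MMPs, was at 153 to 342 CPM, highest in tumor 5. Serpine2, an inhibitor of plasminogen activators and thrombin, was at 80.3 CPM in tumor 5, against 14.3 to 48.9 CPM elsewhere, and Plat, a plasminogen activator, was at 12.0 CPM in tumor 5 and at most 2.15 CPM elsewhere. In edgeR's fit on the score 0 genes passed among 4 convertases, 3 ADAM17 partners, 5 ADAM10 partners, 5 genes of plasminogen activation, 2 genes of induction and clearance and 2 other inhibitors. Their median slopes were −0.08, −0.16, −0.46, 0.91, 0.71 and 0.82.

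The mesenchymal genes Fn1, Vim and Sparc were also highest in tumor 5, the tumor with the high Timp3. These 3 genes carried the sum of the list of 8, which was 102, 47.0, 63.8, 111, 1065 and 84.1 CPM. Fn1, the gene of fibronectin, was at 666 CPM in tumor 5, against 6.38 to 61.1 CPM elsewhere, Vim at 223 against 10.0 to 24.9 CPM, and Sparc at 169 against 18.7 to 27.3 CPM. The transcription factor gene Snai2 was highest in tumor 4, at 6.17 CPM against 3.00 CPM in tumor 5. Zeb1 and Twist1, named after their values were seen, were at most 2.34 and 0.485 CPM, in tumors 4 and 3. Zeb2 and Cdh2, named likewise, were highest in tumor 5, at 1.60 and 0.998 CPM against at most 1.53 and 0.339 CPM elsewhere. The 7 basal epithelial markers summed to 504 CPM in tumor 5 and to 132 to 289 CPM elsewhere, through Krt14 at 359 and Krt17 at 127 CPM. The basal markers Krt5 and Trp63 were highest in tumor 4 instead, at 17.4 and 15.95 CPM against 10.2 and 4.59 CPM in tumor 5. Of the fibroblast markers, Col1a1 was at 8.79, Dcn at 3.00 and Pdgfra at 3.00 CPM in tumor 5, each within the range of the other tumors. The cells had been sorted as negative for PDGFRα. Col3a1 was highest in tumor 5, at 4.99 CPM against 0.509 to 4.85 CPM elsewhere. The 7 fibroblast markers summed to 50.9 CPM in tumor 5, against 17.8 to 35.4 CPM elsewhere, Pdpn giving 29.0 CPM of the sum. The pericyte markers summed to 3.59 CPM in tumor 5, the lowest of the 6, a sum carried mostly by Kcnj8 and Abcc9. Pdgfrb was instead highest in tumor 5, at 0.799 CPM on 4 counts, against at most 0.485 CPM elsewhere. Cspg4 had its only count in tumor 5, while Rgs5 had no count there. With so few counts, the low sum does not show that pericyte RNA was lower in tumor 5. Epcam was at 839 CPM in tumor 5. Of 4 mesenchymal genes tested, 0 passed edgeR's test for a slope on the score. At an unadjusted p under 0.05 there were 3, against 4.31% of all tested genes, in a list chosen with earlier results known. Fn1 and Vim passed in DESeq2 (adjusted p = 9.75e-05 and 0.0132) and in edgeR without the filter (adjusted p = 0.0199 and 0.0313), and Krt17 passed in DESeq2 (adjusted p = 0.0133). Without tumor 5 the slopes of Fn1, Vim and Krt17 were 2.09, 0.82 and 1.17, each with an adjusted p of 1 in edgeR. The part of other cell types in the Timp3 level was not tested.

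**Figure D5:**
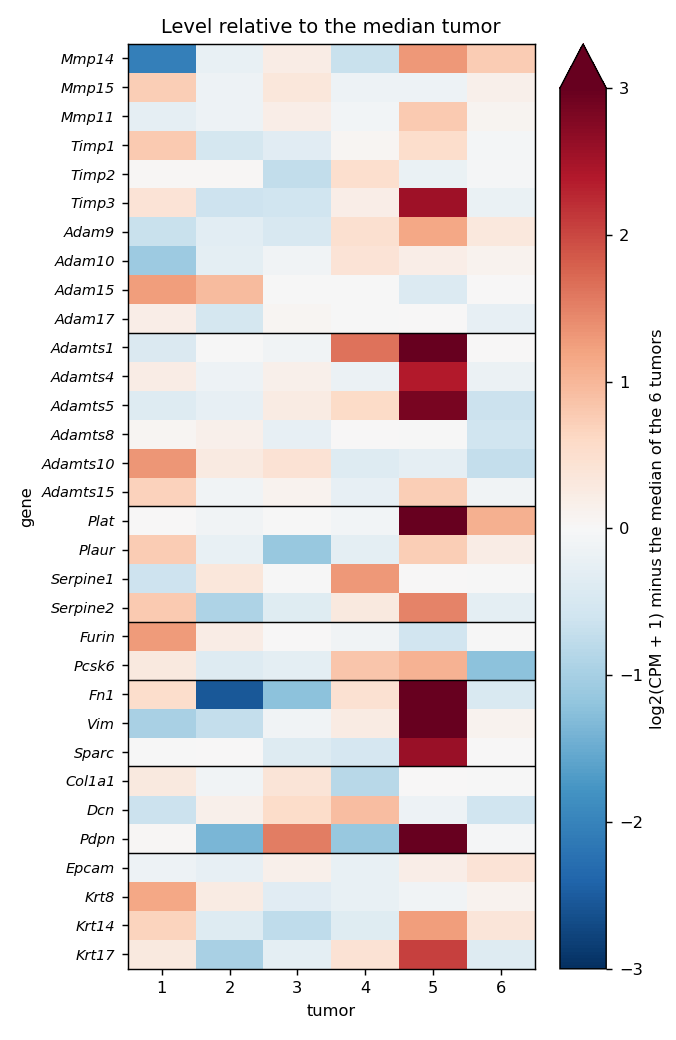
Level of the 10 genes and of named genes of the ADAMTS, plasminogen, convertase, mesenchymal, fibroblast and epithelial lists (separated by lines), as log2(CPM + 1) minus the median of the 6 tumors, with tumors 1 to 6 as columns. Tumor 5 is dark red for Timp3, Adamts1, Adamts5, Plat, Fn1, Vim, Sparc and Pdpn, but not for Col1a1 or Dcn, and tumor 1 is blue for Mmp14 and Adam10.

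The genes whose levels were most like those of each of the 10 over the 6 tumors were sought among the 8873 genes that averaged 10 CPM or more, by Pearson's r on log2(TMM-scaled CPM + 1). For Timp3 these were Arc, an immediate early gene (r = 0.997), and Cdk14 (r = 0.992), and 21 genes exceeded r = 0.95. They were Cfap20 and Anxa9 for Mmp14, Spint1, an inhibitor of cell-surface serine proteases, and Plekhg6 for Mmp15, and Uba3 and Arhgap6 for Mmp11. Snn and Pdk3 were the nearest to Timp1, Trip11 and Brwd3 to Timp2, Rabep1 and Fam104a to Adam9, Eloa and Cobll1 to Adam10, Ciapin1 and Zfp384 to Adam15, and Wbp2 and Vdac3 to Adam17. The number of genes over r = 0.95 ranged from 3 for Timp2 to 212 for Adam10. These are the highest of 8873 correlations over 6 libraries that share their depth and their outlying tumor, and were not tested.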

How the data were processed

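RNA of CD45-EPCAM+ cells from 6 tumors was sequenced as 3′ libraries. Per the methods of the study, the authors used bbduk for trimming, STAR 2.5 for alignment (GRCm38/mm10) and HTSeq for counting, and deposited 1 table of raw counts for every tumor. Whether reads were collapsed by molecular identifiers, whether counting used the strand and the annotation release are not given in the sources used here. Reads not assigned to a gene (5 lines per table, 16.1 to 41.4% of reads) were excluded throughout.

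CPM used the total over all genes. TPM, from which the score was taken, used union exon lengths of GENCODE M21, in which 47224 of 47643 genes were found. Genes were filtered with edgeR's filterByExpr (minimum count 10, minimum total 15), which left 12563. The slope on the log2 score was fitted with edgeR's quasi-likelihood test and TMM scaling (factors 0.910 to 1.06), with Benjamini-Hochberg adjustment over all genes. Correlations used log2(TMM-scaled CPM + 1), with a pseudocount of 1 and two-sided exact tests over the 720 orders of the tumors. The tests were tested on simulated data. No pair of libraries was alike within sampling noise.

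The 10 genes and all gene lists were chosen with earlier results of these data known. Genes named are the 10, up to 4 of each other list with the highest mean CPM, and the 2 most like each of the 10. Adamts4, Adamts5, Pdgfra, Cspg4, Zeb1, Zeb2, Twist1 and Cdh2 are named outside this rule, after their values were seen. Alternatives were CPM, DESeq2's size factors, CPM without the 10 most abundant genes, other pseudocounts, no filter, DESeq2's Wald test, a log2 score, each tumor left out, and, added after seeing the data, the identifier prefix as a term. The CD45+ fraction and the single-cell data were not analysed here. The fits ran in R 4.3.3 (edgeR 4.0.16, DESeq2 1.42.0), the exact tests in Python 3.11.15 (numpy 2.4.6, scipy 1.17.1).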

Additional observations from a re-analysis of the deposited data

Results flagged for a closer look

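A total of 37 measures were examined for a tumor that lay far from the other 5 (a gap to its neighbour, over the range of the 6, above Dixon's 95% critical value), and 8 had such a tumor. Chance alone gives this for about 1 measure in 20, and 15.1% of all tested genes had such a tumor here. The 37 measures overlap, and the genes and lists were chosen with earlier results of these data known. The 8 therefore cannot be set against either share. For 6 of the 8 the gap came from a high value in tumor 5. Timp3 had a gap of 0.868, its share of the counts of the 10 genes 0.811, and Mmp11 0.632 on few counts. The summed ADAMTS genes had a gap of 0.726, mostly through Adamts1, and the mesenchymal genes 0.938 through Fn1, Vim and Sparc. The summed genes of plasminogen activation, with a gap of 0.6252, lay at the critical value. The summed convertases had a gap of 0.725 through Furin in tumor 1, and the other ADAM proteases 0.680 through Adam8 in tumor 3. The causes were not tested.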

How the results depend on the processing

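The count of the 10 genes with an adjusted p under 0.05 for the score was 0 in the fit as reported and in all 12 alternatives, leave-one-out included. The number among all genes was 0 in the fit as reported, 10 without the filter, 19 with DESeq2, 3 with the log2 score and 0 to 2 with a tumor left out. The number of genes with a tumor that stood apart was 2, and 1 on the log2 scale. With the identifier prefix as a term, the slope of Timp1 was −0.051 and that of Timp2 −0.28, both above 0 without that term. The median TIMP share was 54.6 to 55.3% with a tumor left out. With a tumor left out, slopes that changed sign ranged from −0.71 to 1.09 for Mmp14, −0.027 to 0.83 for Mmp11, −0.22 to 0.41 for Timp2 and −0.0048 to 0.31 for Adam17. Correlations with the score ranged from −0.17 to 0.48 for Mmp14, −0.023 to 0.87 for Mmp11, −0.28 to 0.31 for Timp2 and −0.18 to 0.74 for Adam17. Those of pairs ranged from −0.61 to 0.64 for Mmp14 with Timp3, −0.75 to 0.23 for Mmp14 with Mmp15, −0.53 to 0.74 for Adam10 with Timp1, −0.22 to 0.44 for Adam10 with Timp3 and −0.93 to 0.56 for Adam10 with Adam17. Other slopes and correlations kept their sign under these alternatives, and none of the 10 genes or 7 pairs passed an adjusted test under any. Leaving out the 10 most abundant genes raises all levels by construction, and the median of Adam17, the gene with the smallest CV, was then 191 CPM against 156. The other 29 median levels moved by less than 1 SD. The causes were not tested. No paired analysis was possible because all 6 tumors belong to 1 group. Depth limits Adam9, Mmp11 and Timp1, which rest on 5 to 72 counts per tumor. With 6 tumors, an exact p cannot go below 0.00139, and the smallest adjusted p over all genes was 0.419 in the edgeR fit as reported, 0.0199 without the filter, 0.0394 with the log2 score and 0.0290 without tumor 1.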
